A study of Mus musculus with 6 samples.

Results

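The genes for the subunits of oxidative phosphorylation that are encoded in the nucleus were followed in mouse embryonic stem cells with intact Setd2 and in Setd2 knockout cells. Setd2 is the enzyme that trimethylates lysine 36 of histone H3 on transcribed genes. Members were all probe sets annotated to 1 gene whose symbol begins with Ndufa, Ndufb, Ndufc, Ndufs, Ndufv, Uqcr, Cox4i, Cox5, Cox6, Cox7, Cox8 or Atp5, or is one of the Sdh genes of succinate dehydrogenase. The rule found 90 genes of the 18193 named on the array by a probe set of their own, with 179 of the 45037 probe sets, and used no measured value. A further 10 probe sets that match the symbols name several genes and were left out.

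The study compared 3 wild type with 3 Setd2 knockout arrays, described as biological repeats, and looked for deregulated genes needed for primitive endoderm, an extraembryonic lineage of the blastocyst. All cells were of the strain 129SV/C57BL/6, grew untreated in standard medium on feeder cells, and were then freed of most feeders by leaving behind what settled first on gelatin, followed by 1 passage without feeders. The labels give neither the deleted part of Setd2 nor how many lines or clones the repeats came from, so p-values measure the spread between these samples. Each value is a log2 signal, where a difference of 1 is a 2-fold change in signal.

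Oxidative phosphorylation takes place in the inner mitochondrial membrane. Complexes I and II feed electrons from NADH and succinate into the chain, complex III hands them to cytochrome c, complex IV passes them to oxygen, and complex V uses the resulting proton gradient to make ATP. Naive stem cells respire, whereas primed pluripotent cells rely more on glycolysis. Complex I held 34 measured genes with 76 probe sets, complex II 4 genes with 9, complex III 8 genes with 16, complex IV 19 genes with 37, and complex V 17 genes with 31. Ndufa4, known as a subunit of complex IV in spite of its name, and its paralog Ndufa4l2 were counted with complex IV. The symbol rule also took in 8 complex I assembly factors (Ndufaf genes, 10 probe sets), which were kept apart.

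RefSeq promoter windows of build GRCm38.p6, from 250 bases before to 50 after the gene start, were matched for 74 of the 90 genes and comprised 79 windows. The palindromic core of the site for NRF1, a transcription factor known for its role at respiratory chain genes, was searched without mismatch and occurred in 7.59% of the member windows and 0.971% of all 32851 windows. The letters CCGGAAG, the core of sites for Ets factors such as GABP, occurred on either strand in 24.1% of member windows and 8.86% of all. AAGATGGC, a core of YY1 sites, occurred in 12.7% and 2.75%. Motifs may overlap, and a match of letters does not show binding. The 250 bases before the gene start are shown for 4 members whose signals turned out to part the genotypes within replicate numbers, Ndufb6 and Ndufv3 higher and Ndufb7 and Sdhd lower in knockout cells. Capitals mark the Ets letters or their reverse complement, and neither the NRF1 nor the YY1 motif lies in these stretches. The stretch of Ndufv3 holds none of the motifs.
Ndufb6, chr4:40279422-40279671, minus strand: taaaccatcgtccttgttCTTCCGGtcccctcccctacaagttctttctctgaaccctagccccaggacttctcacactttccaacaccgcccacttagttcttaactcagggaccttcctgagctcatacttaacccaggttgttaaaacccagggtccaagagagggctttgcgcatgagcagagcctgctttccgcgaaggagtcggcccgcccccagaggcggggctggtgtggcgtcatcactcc
Ndufv3, chr17:31519865-31520114, plus strand: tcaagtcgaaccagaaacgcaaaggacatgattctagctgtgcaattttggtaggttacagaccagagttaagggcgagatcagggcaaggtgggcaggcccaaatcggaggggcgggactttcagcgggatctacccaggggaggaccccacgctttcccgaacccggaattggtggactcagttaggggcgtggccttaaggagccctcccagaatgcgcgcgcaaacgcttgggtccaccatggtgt
Ndufb7, chr8:83566508-83566757, plus strand: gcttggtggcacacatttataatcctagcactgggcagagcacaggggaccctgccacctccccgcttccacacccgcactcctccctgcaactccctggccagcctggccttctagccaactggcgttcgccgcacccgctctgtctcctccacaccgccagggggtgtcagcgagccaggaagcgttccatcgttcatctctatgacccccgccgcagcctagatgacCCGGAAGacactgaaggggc
Sdhd, chr9:50603850-50604099, minus strand: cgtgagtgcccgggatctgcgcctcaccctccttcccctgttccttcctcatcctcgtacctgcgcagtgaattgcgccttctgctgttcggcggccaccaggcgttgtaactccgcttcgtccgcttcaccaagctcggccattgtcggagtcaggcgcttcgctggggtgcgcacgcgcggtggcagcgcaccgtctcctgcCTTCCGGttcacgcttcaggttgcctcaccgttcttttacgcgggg

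The Setd2 probe set read 10.31, 10.30 and 10.31 in wild type and 9.37, 9.50 and 9.60 in knockout cells, 0.82 ± 0.12 (SE) lower in a limma fit over all tested probe sets (adjusted p = 0.0272, with values from 0.0704 to 0.214 without any 1 array except knockout replicate 1). It checks the genotype only if it lies in the deleted part. The knockout cells also differed in Y-linked genes, with Eif2s3y at 4.46 to 5.16 in wild type and 11.16 to 11.57 in knockout cells, and along chromosome 8, where 86.6% of 1242 tested probe sets were lower in knockout cells with a median difference of -0.34. Genotype and cell line cannot be told apart. The arrays numbered 1 stood apart in both genotypes on the first principal component, which took 38.0% of the variance. Stem cell markers were present, with the mean of 10 of 10 tested markers between 12.52 and 12.87 on every array. Of these markers Zfp42, a chromosome 8 gene, fell. Dppa3 was 0.80 higher in knockout cells (limma adjusted p = 0.256, and 0.00188 with the replicate number fitted as a block). The mean over 16 tested feeder fibroblast markers was 7.72 and 7.53 on the arrays numbered 1 and 8.36 to 8.85 on the other arrays. Acta2, for example, read 11.03 and 10.40 against 12.26 to 12.75, and none of the markers was at 0. In all, 11 of the 16 were lower on both arrays numbered 1 than on all others. Between the genotypes, Fn1 and Pdgfrb were 0.43 and 0.81 higher in knockout cells (limma adjusted p = 0.128 and 0.154, and 0.00327 and 0.0430 with the block).

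Few subunit genes could be told apart between the genotypes, and the number of calls depended on whether the replicate number was fitted as a block. Of the 179 probe sets, 166 for 87 genes passed the filter on dim signals. None of these 166 passed an adjusted p of 0.05 in limma's fit without a block, and the smallest adjusted p was 0.125. The background was 0.648% of 27022 tested probe sets, so a count of 0 among 166 is no result about the members. An unadjusted p under 0.05 in limma was reached by 14 of the 166 members, against 3153 of the 27022 tested probe sets. Without its intensity trend limma also called 0 members. In such bulk samples, fewer cells of a type and less RNA per cell cannot be told apart. The median difference over the tested members was -0.02, beside 0.01 over all tested probe sets, and 93 members lay below 0 and 73 above.

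The differences were also narrowly bounded. The 95% interval lay within 0.50 on the log2 scale, a factor of 1.41, on both sides of 0 for 125 of the 166 members (75.3%), but for 25.3% of all tested probe sets. The median size of the difference was 0.10 for members and 0.18 over all tested probe sets. The members were also bright. Among probe sets with a mean of at least 12, which held 109 of the members, the median size was 0.086 for members and 0.085 for all 2066 tested probe sets that bright.

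The median difference was -0.02 over 72 tested probe sets of complex I, -0.08 over 8 of complex II, -0.02 over 15 of complex III, -0.0017 over 32 of complex IV and -0.01 over 29 of complex V, with -0.01 over 10 of the assembly factors. Within complex I, the catalytic core (6 genes, 16 probe sets) had a median of -0.04 and the accessory subunits (27 tested genes, 56 probe sets) one of -0.01. Within complex V, the F1 subunits (Atp5a1, Atp5b, Atp5c1, Atp5d and Atp5e) had a median of 0.03 over 9 probe sets. The other subunits had one of -0.05 over 20.

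**Figure D1:**
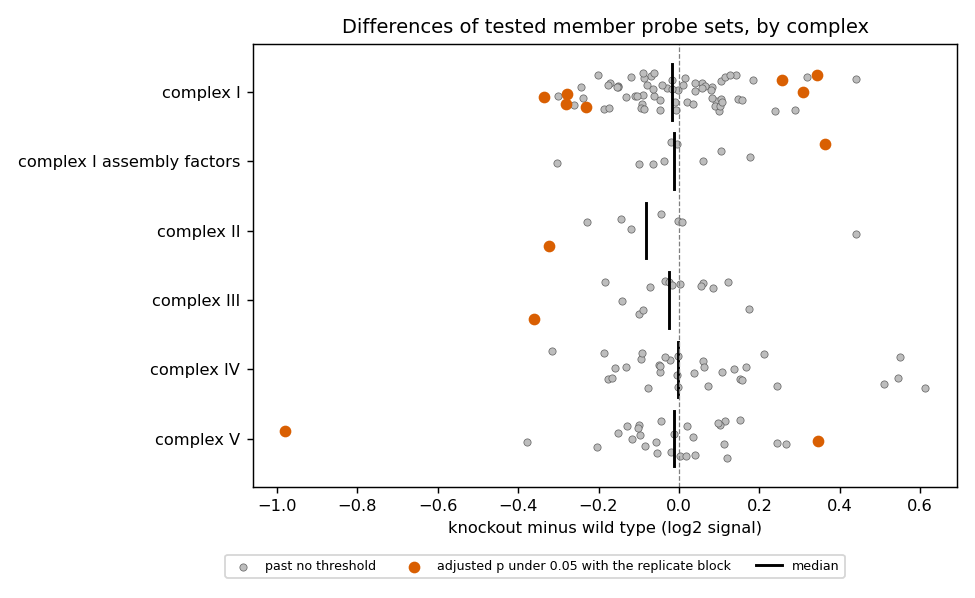
Each point is a tested member probe set, placed by its knockout minus wild type difference in log2 signal (x axis) in the row of its complex (y axis, with random vertical jitter). Black bars are medians, all between -0.08 and 0, and the 12 orange points passed an adjusted p of 0.05 once the replicate number was fitted as a block.

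The knockout arrays differed among themselves. The median deviation of all tested members from the wild type mean was 0.03, -0.02 and -0.01 on wild type arrays 1, 2 and 3, and 0.07, -0.10 and -0.03 on knockout arrays 1, 2 and 3. They thus lay on both sides of the wild type arrays. Knockout array 2 was the lowest of the 6 for each of the 5 complexes, at -0.12 for complex I, -0.13 for complexes II and IV, -0.10 for complex III and -0.09 for complex V. Knockout array 1 was the highest for complexes I, III, IV and V. The median over all tested probe sets moved less, between -0.01 and 0.03 on the 6 arrays.

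**Figure D2:**
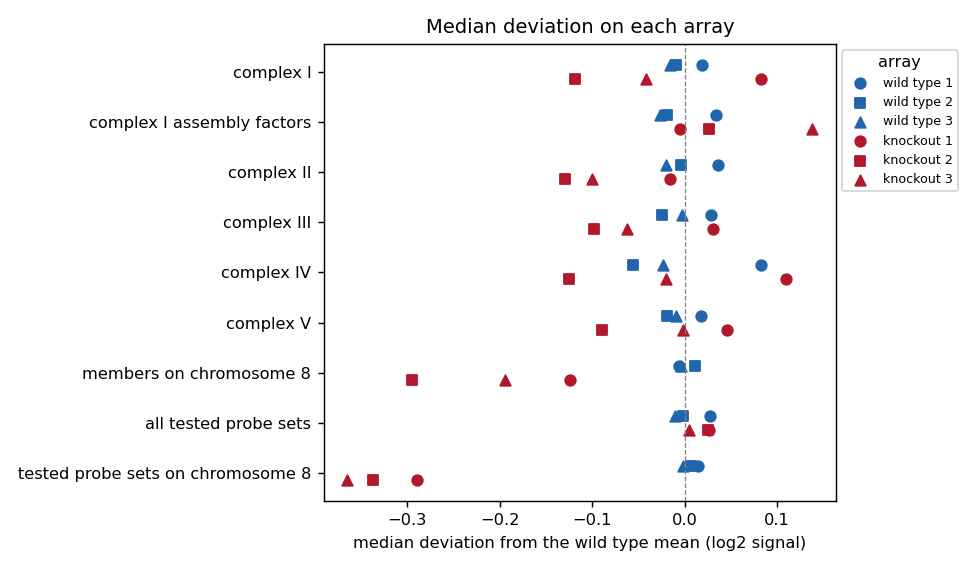
Each marker is the median deviation from the wild type mean in log2 signal (x axis) on 1 array, over the tested probe sets of the row (y axis), with wild type in blue, knockout in red and the replicate number as the marker shape. For the complexes the 3 knockout arrays spread from -0.13 to 0.11, while for chromosome 8 all 3 lie below every wild type array.

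Because arrays of the same number deviated together, clearly as a pair only for number 1, the fit was repeated with the number as a block. With the block, 5 of 166 members rose (3.01%) and 7 fell (4.22%), against a background of 3.49% rising and 4.39% falling among all tested probe sets. These shares are close to the background, which is no result about the members. Among probe sets with a mean of at least 12, 7 of 109 members (6.42%) passed with the block in either direction, a lower share than the 11.7% of all 2066 tested probe sets that bright, and this difference was not tested. Leaving out number 1 kept all 12 calls, whereas leaving out number 2 kept 1 of the 12 (Atp5mpl) and leaving out number 3 kept 0. Leaving out numbers was added once the values were known.

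Among the accessory subunits of complex I, Ndufb6 read 13.33, 13.03 and 13.10 in wild type and 13.65, 13.38 and 13.35 in knockout cells. Each knockout array lay above the wild type array of the same number and above all wild type arrays. The difference of Ndufb6 was 0.31 ± 0.06 (SE) with the block (limma adjusted p = 0.00870, and 0.318 without it). Its other probe set gave a difference of 0.32 (block adjusted p in limma 0.0753). Ndufv3, another accessory subunit, read 12.75, 12.22 and 12.29 in wild type and 12.98, 12.63 and 12.68 in knockout cells. The genotypes overlapped, because wild type array 1 was high, while the difference within numbers 1, 2 and 3 was 0.24, 0.40 and 0.39 (limma adjusted p = 0.00918 with the block and 0.441 without).

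Other accessory subunits fell with the block. Ndufb7, on chromosome 8, read 12.21, 12.25 and 12.22 in wild type and 11.89, 11.84 and 11.95 in knockout cells, without overlap, 0.33 ± 0.07 (SE) lower (limma adjusted p = 0.0120 with the block and 0.125 without, the smallest value of any member in that fit). Ndufs5 read 11.89, 11.88 and 11.83 in wild type and 11.65, 11.61 and 11.50 in knockout cells (limma adjusted p = 0.0312 with the block and 0.249 without). Here too every knockout array was below every wild type array, in a gene of chromosome 4. The 2 further accessory or core calls of complex I, Ndufa12 at 0.26 and the iron-sulfur protein gene Ndufv2 at -0.23, lay outside the naming rule and were picked after their values were seen.

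The iron-sulfur core subunit Ndufs8 shows how far probe sets of 1 gene can differ. One probe set read 12.55, 12.50 and 12.39 in wild type and 12.29, 12.15 and 12.17 in knockout cells (limma adjusted p = 0.0233 with the block and 0.230 without). The other 5 tested probe sets of the gene had differences from -0.17 to 0.16 and none passed with or without the block. Over the family, 48 genes had at least 2 tested probe sets: in 9 of them all lay above 0, in 15 all lay below 0, and in 24 the signs were mixed. For Ndufv2 all 3 lay below 0, from -0.23 to -0.13, while for Ndufa12 they ran from -0.07 to 0.26. With the block, no gene had more than 1 probe set past the threshold. The brightest complex I genes, the accessory subunits Ndufa7 and Ndufc1, differed by -0.09 (95% interval -0.32 to 0.14) and -0.06 (-0.29 to 0.16).

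Of the assembly factors, which help to build complex I and do not stay in it, Ndufaf6 read 10.69, 10.08 and 10.04 in wild type and 11.10, 10.39 and 10.42 in knockout cells. The groups overlapped and both arrays numbered 1 were the highest of their genotype. The difference was 0.41, 0.31 and 0.37 within numbers 1, 2 and 3 (limma adjusted p = 0.0233 with the block and 0.639 without). The brightest assembly factors, Ndufaf2 and Ndufaf8, differed by -0.0043 (95% interval -0.22 to 0.21) and 0.10 (-0.19 to 0.40).

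Complex II, which also serves the citric acid cycle, held 1 call with the block. Sdhd, a membrane anchor, read 12.01, 12.21 and 12.21 in wild type and 11.63, 11.83 and 12.01 in knockout cells. Knockout array 3 reached 12.01 but stayed just below wild type array 1, and the signal was 0.32 ± 0.07 (SE) lower (limma adjusted p = 0.0184 with the block and 0.330 without). Its other probe set differed by -0.23, also without overlap (block adjusted p in limma 0.197). The flavoprotein gene Sdha differed by -0.12 (95% interval -0.34 to 0.10), the iron-sulfur gene Sdhb by -0.0027 (-0.22 to 0.21) and the other anchor gene Sdhc by 0.0075 (-0.24 to 0.26).

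In complex III the call with the block fell on a dimmer probe set of Uqcr10, a small accessory subunit. It read 10.47, 10.59 and 10.59 in wild type and 10.30, 10.01 and 10.26 in knockout cells (limma adjusted p = 0.0495 with the block and 0.294 without). The knockout arrays were all lower, as they were in a further probe set that differed by -0.18 (block adjusted p in limma 0.219). The brightest probe set of the gene differed by 0.06 (95% interval -0.17 to 0.29). Uqcrb and the core protein gene Uqcrc1, the brightest members, differed by -0.03 (-0.17 to 0.10) and -0.10 (-0.28 to 0.09).

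In complex V, Atp5mpl, a small membrane subunit, read 12.48, 12.16 and 12.13 in wild type and 12.81, 12.45 and 12.55 in knockout cells. Only wild type array 1 reached into the range of the knockout arrays, and the signal was 0.35 ± 0.06 (SE) higher with the block (limma adjusted p = 0.00821; 0.333 without). The f subunit gene Atp5j2 fell with the block at its dim probe set, from 6.85, 7.55 and 7.36 to 6.23, 6.44 and 6.15 (limma adjusted p = 0.0244; 0.154 without the block). Its brighter probe sets differed by -0.15 and -0.20, with no overlap between the genotypes in either.

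The catalytic β subunit gene Atp5b read 14.43, 14.56 and 14.53 in wild type and 14.53, 14.57 and 14.52 in knockout cells (95% interval of the difference -0.09 to 0.16). The c subunit, which forms the rotating ring, is encoded by several genes with the same mature protein. Of these, Atp5g1 differed by 0.0016 (-0.21 to 0.21), Atp5g2 by 0.02 (-0.14 to 0.18) and Atp5g3 by -0.13 (-0.27 to 0.01).

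**Figure D3:**
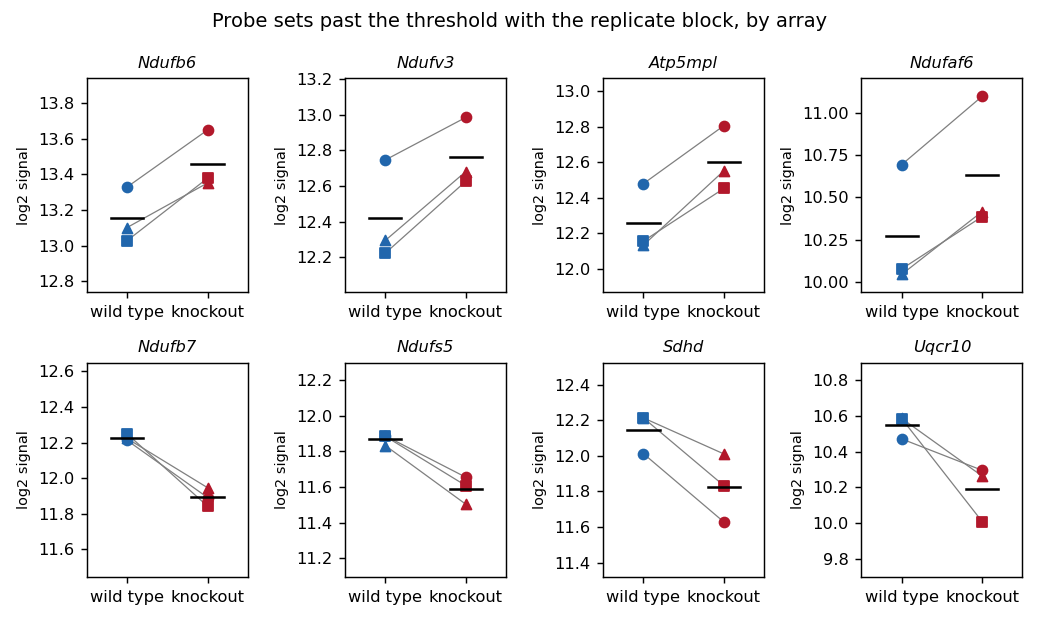
Log2 signal (y axis) of 8 of the 12 probe sets that passed with the replicate block, in wild type (blue) and knockout (red) arrays (x axis), with circles, squares and triangles for numbers 1, 2 and 3, grey lines joining arrays of the same number and black bars for means. In the upper row all 3 lines rise, and number 1 starts above the others; in the lower row all 3 fall.

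Complex IV held no call, with or without the block, in 32 tested probe sets of 17 genes. Over all tested probe sets 0.648% passed without the block, and 3.49% rose and 4.39% fell with it. With shares this low, the absence of calls in 32 probe sets is no result about the complex. Several of its subunits exist as isoforms with different tissue patterns. Among the widely expressed forms, each at its brightest probe set, Cox5a differed by -0.05 (95% interval -0.22 to 0.12), Cox5b by -0.02 (-0.17 to 0.12), Cox6a1 by -0.09 (-0.26 to 0.08), Cox6b1 by 0.07 (-0.10 to 0.24) and Cox8a by 0.06 (-0.14 to 0.27). Cox7a2 read 14.60, 14.41 and 14.40 in wild type and 14.49, 14.21 and 14.32 in knockout cells, a difference of -0.13 (-0.33 to 0.07). Ndufa4 differed by 0.04 (-0.17 to 0.25), and Ndufa4l2, known from the response to low oxygen, was dim and scattered from 4.35 to 6.80.

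Several complex IV subunits also have isoforms known from muscle, lung or testis. Cox8c, a testis isoform, read 7.30, 7.19 and 7.46 in wild type and 7.81, 7.68 and 8.10 in knockout cells. All knockout arrays were higher, by 0.55 (95% interval 0.12 to 0.97), but the adjusted p in limma was 0.297, and 0.0657 with the block. Cox4i2, Cox8b and the second probe set of Cox8c were too dim to be tested, and the muscle isoform Cox6a2, at 5.88 to 6.45, lay near the filter value of 5.27 and differed by -0.09 (95% interval -0.71 to 0.52). Cox7b2, a testis isoform outside the naming rule, read 6.51, 6.88 and 6.74 in wild type and 6.69, 7.38 and 7.58 in knockout cells. The genotypes overlapped, and the difference of 0.51 (-0.11 to 1.13) did not pass in limma (adjusted p = 0.531, and 0.188 with the block). Cox7a1, the heart and muscle partner of Cox7a2, and Cox6b2, the testis partner of Cox6b1, differed by -0.31 (-1.33 to 0.70) and 0.24 (-0.62 to 1.11). Their arrays split by replicate number.

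Cox7a1 read 10.08 and 9.75 on the wild type and knockout arrays numbered 1, and 8.64, 8.96, 8.31 and 8.68 on the other arrays. Cox6b2 read 11.25 and 11.68 on the arrays numbered 1 and 10.23 to 10.45 on the others. Cox7a2l, a factor that joins complexes III and IV into supercomplexes, read 12.49 and 12.75 against 11.93 to 12.24, and its other probe sets split the same way. Ndufb1, an accessory subunit of complex I, ran the opposite way, at 8.14 and 7.49 against 8.69 to 9.57. It lay outside the naming rule and was picked after its values were seen.

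Over the family, both arrays numbered 1 lay above all others in 56 of 166 tested members (33.7%), against 19.8% of all tested probe sets, and below all others in 12 (7.23%), against 16.2%. The members' median shift on those arrays was 0.08, beside 0.03 over all tested probe sets. Without regard to sign, the median size of that shift was smaller for members, at 0.132 against 0.256. The background was not matched to the brightness of the members here either. The numbers are replicate labels and were not tested as a condition. Of the 16 tested feeder markers, 11 were lower and 0 were higher on both arrays numbered 1 than on all others, and their part in the split was not tested.

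**Figure D4:**
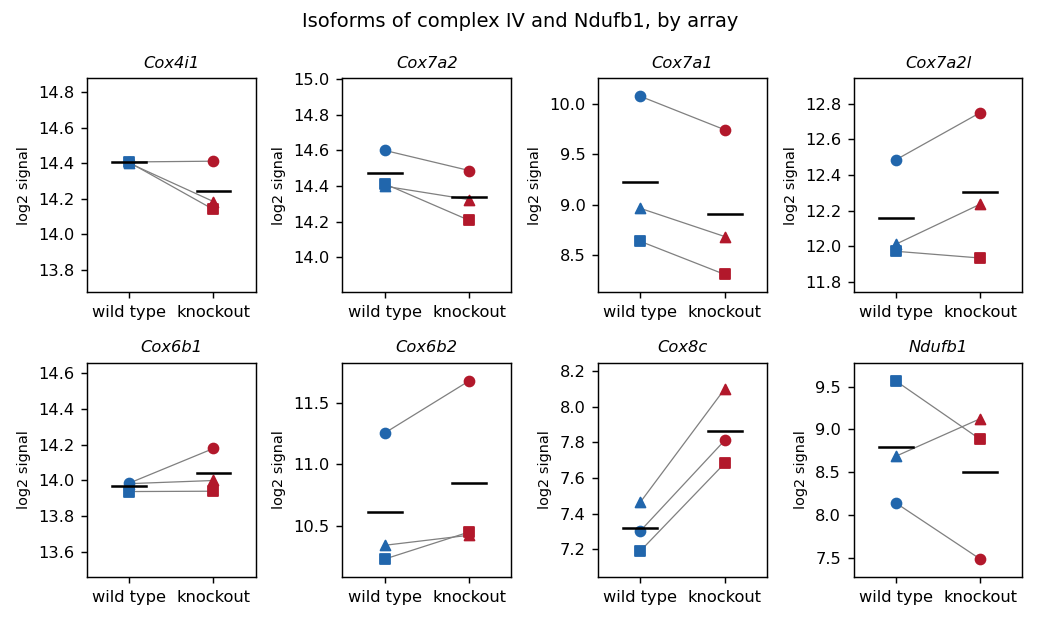
Log2 signal (y axis, scaled per gene) in wild type (blue) and knockout (red) arrays (x axis), with circles, squares and triangles for numbers 1, 2 and 3 and black bars for means. Both circles lie on one side of all other markers for Cox7a1, Cox7a2, Cox7a2l, Cox6b2 and Ndufb1, and narrowly for Cox4i1. The genotypes part without overlap in Cox8c alone of these 8.

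The members on chromosome 8 were Ndufb7, Cox4i1, the widely expressed isoform of a complex IV subunit, and Ndufa13, a complex I subunit also known as Grim19. All 4 of their probe sets were lower in knockout cells, with a median of -0.19, beside -0.01 for the other 162 tested members and -0.34 for all tested probe sets of the chromosome. Cox4i1 read 14.41, 14.41 and 14.40 in wild type and 14.41, 14.14 and 14.18 in knockout cells. Knockout array 1 was thus as high as wild type, and the difference of -0.16 (95% interval -0.33 to 0.02) did not pass (limma adjusted p = 0.477, and 0.156 with the block) except without the arrays numbered 1 (0.0235). Ndufa13 differed by -0.17 (-0.39 to 0.05), and the brighter probe set of Ndufb7 by -0.20 (-0.38 to -0.03; limma adjusted p = 0.343).

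In 22 of 166 members (13.3%) all knockout arrays lay below all wild type arrays, against 8.99% of all tested probe sets, and in 13 (7.83%) they lay above, against 9.16%. By complex, these counts were 6 lower and 1 higher of 29 tested probe sets for complex V, and 3 and 0 of 8 for complex II. They were 3 and 1 of 15 for complex III, 10 and 8 of 72 for complex I, and 0 and 3 of 32 for complex IV. The counts were not tested, and the background was not matched to the brightness of the members. After centring each array on its median, 26 members (15.7%) lay lower and 6 (3.61%) higher, against 10% and 7.19% of all tested probe sets centred in the same way.

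Genes that work beside the chain were each taken at its brightest tested probe set. With the block, the background over all tested probe sets was 3.49% higher and 4.39% lower, as above. Of 76 mitochondrial ribosomal protein genes 0 passed limma's threshold without the block, and 4 rose and 4 fell with it (5.26% each way), with a median difference of -0.0042. Of 17 citric acid cycle genes 0 passed without the block and 3 fell with it (17.6%). Of 17 genes of mitochondrial transcription and replication 0 passed without it and 1 fell with it (5.88%), the rRNA methyltransferase gene Tfb1m at -0.71. Cytochrome c and cytochrome c1 had no call. The subunits encoded in mitochondrial DNA were not analysed here.

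The calls without the block lay in Timmdc1 and Vdac3. Timmdc1, an assembly factor of complex I outside the symbol rule, read 9.30, 8.55 and 8.78 in wild type and 10.01, 10.18 and 9.99 in knockout cells, 1.18 ± 0.20 (SE) higher (limma adjusted p = 0.0459; 0.00134 with the block). Vdac3, a channel of the outer membrane, read 13.36, 13.45 and 13.46 in wild type and 12.90, 12.92 and 12.98 in knockout cells (limma adjusted p = 0.0215; 0.000725 with the block). Of 33 tested assembly factors, 3 rose (9.09%) and 2 fell (6.06%) with the block, with a median difference of 0.04. Of 6 tested carriers and channels, 2 fell with the block (33.3%), with a median of -0.07. Lists this small move by several percent with 1 gene, and their shares were not tested against the background. Vdac3 lies on chromosome 8, as does Slc25a4, an ADP/ATP carrier gene, which fell with the block at -0.38 (limma adjusted p = 0.00306, and 0.192 without the block). For both Timmdc1 and Vdac3 the genotypes did not overlap, but neither passed without wild type array 2 or 3 or knockout array 2 or 3.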

How the data were processed

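Total RNA of 6 samples was hybridised to Affymetrix mouse genome arrays. The deposited values are log2 signals made by the authors with MAS5, per the submitters' processing notes, with the version not given in the sources used here; the log2 scale was settled from the values, since back on the linear scale every array had a mean of 497.0 to 497.3 after trimming 2% at both ends. They were used as deposited. Detection calls were not used here, and precision is limited by having 3 arrays per genotype.

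Genes came from the platform annotation, with symbols and chromosomes checked by gene identifier in the RefSeq table of GRCm38.p6 (34741 of 34945 probe sets naming 1 gene were found, with 0 symbols altered; 932 named several genes and 9160 were unnamed here). Probe sets whose mean log2 value lay below the 40th percentile (5.27) were left out, leaving 27022. Knockout minus wild type was tested with limma 3.58.1 in R 4.3.3 (lmFit, eBayes with an intensity trend, two-sided, Benjamini-Hochberg over all tested probe sets, threshold 0.05), and the fit was tested on simulated data. SE is the standard error of the fitted difference.

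Arrays of the same replicate number in the titles deviated together from their genotype means. Across probe sets r was 0.50, 0.23 and 0.24 for numbers 1, 2 and 3, each above 0.1, so the fit with the number as a block stands beside the unblocked one. Wild type 2 also correlated with knockout 3 at 0.23, and wild type 3 with knockout 2 at 0.17. Deviations were taken from a mean of 3 arrays, so a number 1 that stands apart puts numbers 2 and 3 together on the other side. The r of numbers 2 and 3 therefore cannot show pairing, and only number 1 is clearly a pair.

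The members and lists were chosen with earlier results of these data known, and no test over a list was made. Most genes were named by rule. The rule took calls without a block, up to 5 per complex with it, the 2 brightest per complex and members on chromosome 8. It also took the complex IV and ring isoforms, the Sdh genes, Setd2 and, of the other lists, up to 2 calls each without the block. Outside the rule, Ndufa12, Ndufv2, Cox7b2, Ndufb1, Tfb1m and Slc25a4 were named with their values known.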

Additional observations from a re-analysis of the deposited data

How the results depend on the processing

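The 14 fits with another filter, scaling, floor, variance prior, block or set of arrays left the count of members past the threshold at 0, except with the replicate block (12) and without both arrays numbered 1 (11), of which 8 were the same probe sets. With the block and 1 number left out the count ran from 0 to 24. Taking 1 probe set per gene, dropping _x_at and _s_at probe sets or dropping chromosome 8 also gave 0. The number of calls over all probe sets was 175, against 57 without the intensity trend, 2129 with the block, 2033 without both arrays numbered 1 and 31 to 431 when leaving out single arrays. In the other mitochondrial lists the 2 calls became 0 without the trend, 19 with the block, 18 without both arrays numbered 1 and 0 to 5 when leaving out single arrays. Members whose arrays lay apart as higher numbered 6 in place of 13 after centring on array medians (3.61%, against 7.19% of all tested probe sets). The medians of complexes II and III stayed below 0 in every alternative, while those of complexes I, IV and V and of the assembly factors lay on both sides of 0. When leaving out single arrays that of complex I ran from -0.074 to 0.013 and that of the assembly factors from -0.0095 to 0.076, the latter also being -0.053 after centring and 0.057 without both arrays numbered 1. That of complex II was -0.0027 without _x_at and _s_at probe sets. Of 602 refits of named genes 20 passed only in the alternative and 16 only in the unblocked fit to all arrays (6 of Setd2, 5 of Timmdc1 and 5 of Vdac3, with limma adjusted p up to 0.263); 33 turned the sign of a difference that passed in neither. The cause of these shifts was not tested. With 3 arrays per genotype and MAS5 signals, differences of dim isoforms could be missed.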
